A study of Homo sapiens with 40 samples.

Results

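The 9 genes described here encode ion channels that set the electrical behaviour of the insulin-secreting beta cell. They are the ATP-sensitive potassium channel genes ABCC8 and KCNJ11, the calcium channel pore genes CACNA1A, CACNA1C, CACNA1D and CACNA1H, the potassium channel genes KCNH2 and KCNMA1, and the sodium channel gene SCN8A. The rule that picks them uses their names and no measured value, and they were proposed with earlier results of these data known. A region was assigned to a gene when it lay within 2 kb of a GENCODE 44 start site of a protein-coding transcript, when it overlapped the gene body, or when that gene's start site was the nearest one and lay within 100 kb. By this rule the 9 genes held 157 of 51489 H3K27ac peaks, 111 of 51457 CTCF peaks, 60 of 14886 enhancers listed for non-senescent cells, 53 of 13076 enhancers listed for senescent cells, and 0 of 2435 Rb regions.

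Chromatin immunoprecipitation with sequencing (ChIP-seq) was performed in EndoC-βH3, a human beta-like line derived from fetal pancreas and carrying transgenes that keep it dividing. The senescent group received 4-hydroxytamoxifen for 3 weeks, which switches on a recombinase that removes the transgenes. The non-senescent group was left without the drug, and the labels give the genotype WT for both groups. H3K27ac, an acetylated histone found where promoters and enhancers are active, and CTCF, a protein that anchors chromatin loops, were each read in 3 non-senescent and 3 senescent libraries, and H3K4me1 and the retinoblastoma protein Rb in 2 and 2. The state of this single cell line stands in for beta cell senescence, and the drug, the loss of the transgenes and the arrest cannot be told apart.

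In a beta cell, glucose metabolism raises ATP, which closes the ATP-sensitive potassium channel and lets the membrane depolarize. Voltage-gated sodium and calcium channels then open, calcium enters, and insulin granules fuse with the membrane. Voltage-gated and calcium-activated potassium channels help to repolarize the membrane.

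The deposited tables give each peak a mean normalized count over the 6 libraries of both states together, with no value per library. Levels are therefore given without an error, no difference between states can be read from them, and the depth of each library is unknown. A longer peak gathers more reads, so a count per kb is given where genes are compared. The comparison between states rests on the enhancer lists, 1 for each state, in which an enhancer is a stretch with both H3K27ac and H3K4me1 outside promoters. With 1 list per state there are no replicate lists, and no test was possible.

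All 9 genes had an H3K27ac peak within 2 kb of at least 1 start site, while 66.4% of 19663 protein-coding genes did. The beta cell identity of the line was visible in the same measure. All 9 beta cell marker genes had a start-site peak, with mean counts from 43.6 (MAFA) over a median of 2453 to 10150 (PDX1). None of the 3 mesenchymal markers had one, and the alpha cell hormone gene GCG and the acinar genes PRSS1 and PTF1A had none. Some markers of other cell types did carry peaks, among them the alpha cell gene IRX2 (3342), the acinar gene CPA1 (1498), the ductal gene KRT19 (913) and the macrophage gene CD68 (3544), and their part in the levels below was not tested.

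**Figure D1:**
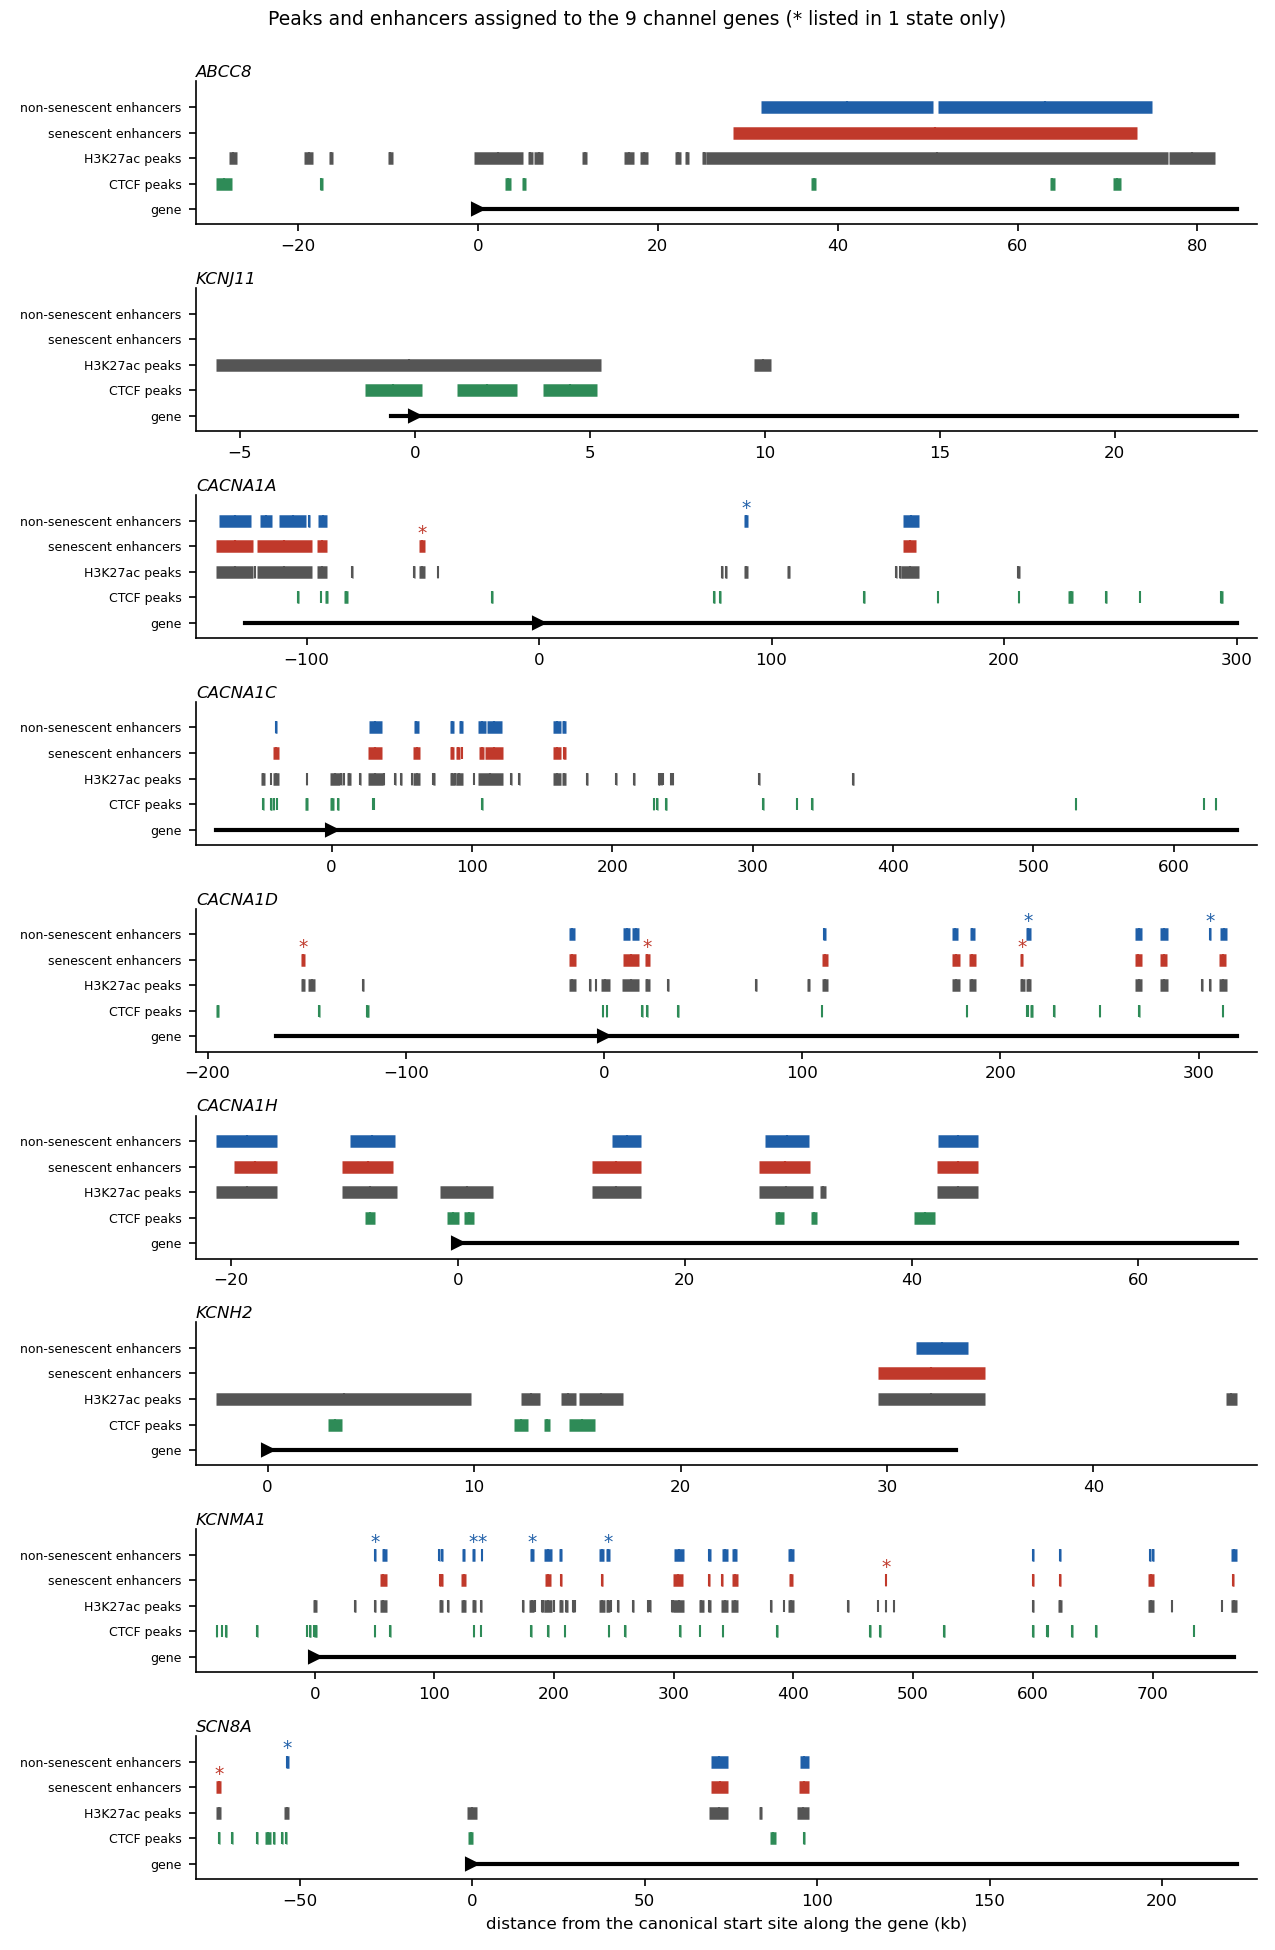
Regions assigned to each of the 9 channel genes, drawn by distance from the canonical start site in kb along the direction of transcription, with 1 row each for enhancers of non-senescent cells (blue), enhancers of senescent cells (red), H3K27ac peaks (grey), CTCF peaks (green) and the gene (black, arrowhead at the canonical start). Each region also has a tick at its centre, so that short ones are visible, and asterisks mark the 9 and 6 enhancers listed in 1 state only.

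The ATP-sensitive potassium channel is built from a regulatory sulfonylurea receptor, encoded by ABCC8, and a pore, encoded by KCNJ11, which lie end to end on chromosome 11 with 3166 bases between them. ABCC8 (chr11:17392498-17476894, minus strand, 39 exons in the canonical transcript) carried the largest H3K27ac region of the 9 genes. A single peak of 51.3 kb (chr11:17400088-17451426) covered most of the gene, over coding exons and introns, with a mean count of 8191. It ranked 3 by length and 49 by mean count among the 51489 peaks of the table. Per kb it held 160 counts, compared with a median of 66.6 over all peaks, and the part of its length in its rank was not tested. Next to it, at the far end of the gene, lay a peak of rank 3 by mean count in ABCC8 (chr11:17394943-17400040), with a mean count of 194. In all, H3K27ac peaks covered 82.0% of the ABCC8 body, more than in 99.6% of the 8549 protein-coding genes of at least 20 kb with a start-site peak, whose median was 5.96%.

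The start of ABCC8 itself was less marked than its interior. A peak of 5.41 kb over the canonical start (chr11:17471851-17477257) had a mean count of 532, or 98.4 per kb. The other start-site peaks were small, at chr11:17457968-17458866 (44.1) and chr11:17459485-17460629 (47.0), while the 51.3 kb region also spans the annotated starts of 2 short transcripts. All 9 annotated ABCC8 start sites had a peak within 2 kb.

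KCNJ11 (chr11:17365172-17389331, minus strand, a canonical transcript of 1 exon) had 2 H3K27ac peaks. The first, of 11 kb (chr11:17383332-17394336), covered the whole coding exon and the start and ran on past the far end of ABCC8. Its mean count was 1425, or 130 per kb, higher than in 94.3% of all peaks. The second lay inside the gene at chr11:17378468-17378967 with a mean count of 18.3. KCNJ11 was alone among the 9 genes in having no enhancer of either list assigned to it. By the rule, enhancers in the body of ABCC8 went to ABCC8, also those on the side of KCNJ11. At their nearest these lay 51.1 kb (non-senescent, chr11:17401938-17425701) and 28.3 kb (senescent, chr11:17403513-17448501) from the canonical ABCC8 start. Which of the 2 genes they act on was not tested.

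The calcium channel pores differed in where their acetylation sat. CACNA1C, which encodes an L-type pore (chr12:1970772-2697950, plus strand), had 36 H3K27ac peaks. Its canonical promoter peak (chr12:2051711-2059205) reached 1607, and a start-site peak 58.1 kb into the gene (chr12:2111039-2115886) reached 521. The 2 highest peaks were intronic, at chr12:2157306-2174806 (17.5 kb, mean count 4310, 246 per kb) and chr12:2079146-2089237 (10.1 kb, mean count 3003, 298 per kb). Both were thus denser per kb than the promoter peak, which held 214 per kb. The farthest peak lay 372 kb past the canonical start, and the remaining 3′ part of the gene had none, as the map of regions shows.

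CACNA1D, which encodes the other L-type pore considered here (chr3:53328963-53813733, plus strand), had 22 H3K27ac peaks. The canonical promoter peak (chr3:53492969-53497631) had a mean count of 1308, or 281 per kb. The highest peak lay 9.06 kb to 17.8 kb inside the gene (chr3:53503672-53512426) and reached 1569. A peak of 1087 at chr3:53345461-53348934 overlapped the neighbouring gene DCP1A as well as the long models of CACNA1D, and cannot be credited to either gene alone. The remaining start-site peak, at chr3:53704580-53706844, was low (109).

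CACNA1A, which encodes the P/Q-type pore (chr19:13206442-13633025, minus strand), was unlike the other 8 genes at its start. No H3K27ac peak lay within 2 kb of its canonical start (chr19:13506479), and the nearest one, with a mean count of 21.8, was 43.4 kb away. Of its 14 annotated start sites, 2 had a peak within 2 kb, and both belong to longer models that begin upstream, at -93.5 kb and -118 kb relative to the canonical start. The peak at the first (chr19:13597519-13601911) had a mean count of 773, and that at the second (chr19:13604234-13627887, 23.7 kb) had 4315. A further region of 15.9 kb (chr19:13629394-13645294), which spans the upstream boundary of the gene and the sequence beyond it, had 4864 counts, or 306 per kb. Acetylation of CACNA1A was thus concentrated upstream of the canonical start, from -139 kb to -91.0 kb, and the highest peak elsewhere in the gene lay in an intron (chr19:13342878-13350613, mean count 1311).

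CACNA1H encodes a T-type pore, which opens at low voltage (chr16:1153106-1221771, plus strand). Its promoter peak (chr16:1151545-1156230) had a mean count of 452, or 96.4 per kb. The strongest peak lay upstream, at chr16:1142922-1147707 (1470, or 307 per kb), followed by chr16:1131799-1137171 (750) and an intronic peak at chr16:1164905-1169269 (743). The promoter was therefore sixth of its 7 peaks by mean count.

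Among the potassium channel genes outside the ATP-sensitive channel, KCNH2, which encodes a delayed rectifier of the ERG family (chr7:150944961-150978321, minus strand), had the highest level at a canonical start. A peak of 12.4 kb (chr7:150968453-150980805) over the promoter and the first exons had a mean count of 4335 and 351 counts per kb. The next peaks were a region over the last exons and the 3′ UTR (chr7:150943569-150948780, 592) and an intronic peak (chr7:150961106-150963216, 76.3). H3K27ac covered 52.2% of the body of KCNH2.

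KCNMA1 encodes the pore of the large-conductance calcium-activated potassium channel, known as BK (chr10:76869601-77638369, minus strand). It is the longest of the 9 genes, at 769 kb, and had the most H3K27ac peaks, 47, and the most enhancers. Its canonical promoter peak (chr10:77635690-77639286) had a mean count of 717, or 199 per kb, and a start-site peak deep in the gene (chr10:77037080-77038894) had 159. The 3 highest peaks were all intronic, at chr10:77329312-77338413 (1778), chr10:77439983-77446213 (950) and chr10:77577622-77583358 (906).

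SCN8A encodes a voltage-gated sodium channel pore (chr12:51590266-51812864, plus strand) and had 6 H3K27ac peaks, 3 of them at start sites. The canonical promoter (chr12:51589861-51592768) had a mean count of 377. A start inside the gene, 71.6 kb from the canonical one, had the highest peak (chr12:51659988-51665422, 869), and another 95.2 kb from it had 383 (chr12:51685410-51688904). SCN8A had the lowest share of its body under H3K27ac peaks, 5.42%, next to the median of 5.96% over genes of at least 20 kb.

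Ordered by counts per kb at the canonical start, the genes ran from KCNH2 (351) over CACNA1D (281), CACNA1C (214), KCNMA1 (199), SCN8A and KCNJ11 (both 130) to ABCC8 (98.4) and CACNA1H (96.4), with CACNA1A last at no peak. Without values per library, neighbours in this order cannot be separated. By the mean count, not per kb, of the highest peak at any start site, ABCC8 stood above 99.7% of all protein-coding genes. KCNH2 and CACNA1A stood above 98.6% each, and CACNA1H, the lowest of the 9, above 60.0%. For ABCC8 and CACNA1A these were the long regions of 51.3 kb and 23.7 kb, away from the canonical start. The canonical ABCC8 peak (532) was below 601, the median of the highest start-site counts of genes with such a peak.

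**Figure D2:**
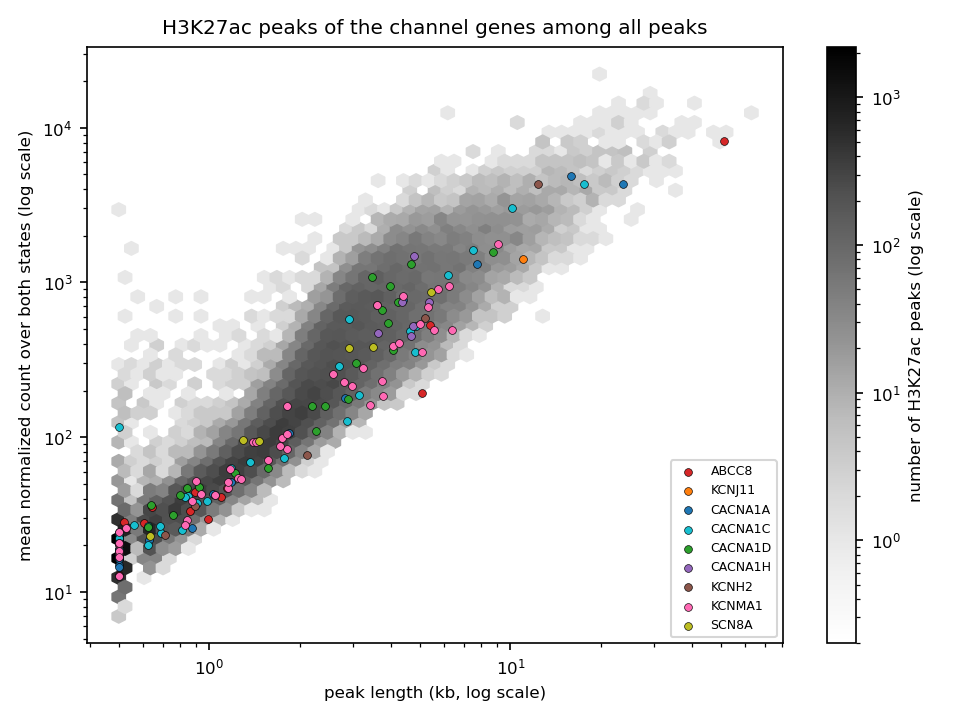
Length in kb against mean normalized count over both states for all 51489 H3K27ac peaks (grey hexagons, darker where more peaks fall) and for the peaks of the 9 channel genes (coloured points), both axes on a log scale. The ABCC8 region of 51.3 kb and 8191 counts lies at the long end of the cloud, and the 15.9 kb and 23.7 kb regions of CACNA1A and the 17.5 kb region of CACNA1C lie next to it.

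The RefSeq promoter table (GRCh38.p14, 250 bases before to 50 bases after a start) was used at the canonical starts of 5 of the 9 genes. Promoters of ABCC8, KCNJ11, CACNA1H and KCNH2, all acetylated, were not used here, so the values below do not cover every acetylated promoter of the 9 genes and give no contrast between promoters with and without a peak. Among those used, the promoters of CACNA1C, CACNA1D, KCNMA1 and SCN8A were 82.3% to 85.7% G and C with 52 to 56 CpG pairs. The canonical promoter of CACNA1A, with no H3K27ac peak, was 60.7% G and C with 21 CpG pairs, close to the medians of all 35116 promoters (58.7% and 14). The GC box GGGCGG, searched on both strands with overlapping matches counted, occurred in all 5 (2 to 10 matches), and in 45.0% of all promoters. The CRE core TGACG and the homeodomain core TAATTA occurred in none of the 5, and in 24.6% and 4.84% of all promoters. The same was true of the MAF core TGCTGA, which 17.3% of all promoters held, and the E-box CANNTG occurred in 2 of the 5 and in 68.7% of all.

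Promoters are shown for the gene with the most G and C among those used (KCNMA1) and for the gene with no peak at its canonical start (CACNA1A), each 5′ to 3′ along the gene, with GC boxes in capitals.
KCNMA1, chr10:77637759-77638058, minus strand: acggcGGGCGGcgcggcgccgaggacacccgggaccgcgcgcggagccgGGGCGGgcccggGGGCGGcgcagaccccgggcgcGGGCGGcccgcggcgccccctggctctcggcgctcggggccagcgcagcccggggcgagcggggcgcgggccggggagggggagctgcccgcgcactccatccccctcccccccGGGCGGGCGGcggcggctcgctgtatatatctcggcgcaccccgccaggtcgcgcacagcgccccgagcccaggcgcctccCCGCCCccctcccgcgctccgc
CACNA1A, chr19:13506430-13506729, minus strand: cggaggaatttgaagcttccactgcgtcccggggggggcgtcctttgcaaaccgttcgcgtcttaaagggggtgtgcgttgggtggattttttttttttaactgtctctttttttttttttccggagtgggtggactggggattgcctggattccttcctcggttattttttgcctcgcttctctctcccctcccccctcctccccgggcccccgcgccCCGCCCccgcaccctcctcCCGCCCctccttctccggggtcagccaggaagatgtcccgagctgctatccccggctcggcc
CpG pairs numbered 54 in the KCNMA1 sequence and 21 in that of CACNA1A, and GC boxes 7 and 2.

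Between the states, most enhancers of these genes were listed in both. Of the 60 non-senescent enhancers, 51 overlapped a senescent one by at least 1 base and 9 did not (15.0%, Wilson 95% interval 8.1% to 26.1% for counting error only), compared with 29.4% over the whole non-senescent list. Of the 53 senescent enhancers, 6 had no non-senescent partner (11.3%, interval 5.29% to 22.6%), compared with 20.5% over the whole senescent list. Enhancers of the 9 genes were longer than usual, with a median of 3391 bases against 2280 in the non-senescent list and 3619 against 2486 in the senescent one, and longer enhancers have more bases with which to overlap. When the overlap had to reach 50% of both partners, the shared percentage was 58.3% for the 9 genes and 62.8% for the whole non-senescent list. It was 66.0% and 71.5% for the senescent list, so the order of the 2 reversed. At 90% the 9 genes were again higher, with 16.7% against 14.4% (non-senescent) and 18.9% against 16.4% (senescent).

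**Figure D3:**
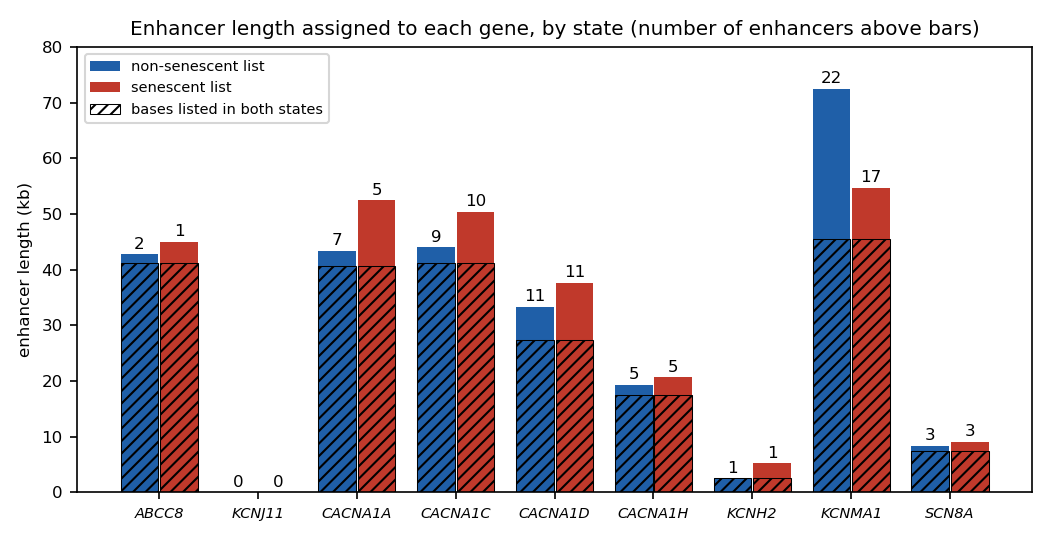
Length in kb of the enhancers assigned to each gene in the non-senescent list (blue bars) and the senescent list (red bars), with the bases listed in both states hatched and the number of enhancers above each bar. KCNMA1 falls from 72.5 kb to 54.7 kb, the other 7 genes with enhancers are higher in the senescent list, and KCNJ11 has none.

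In total, enhancers of the 9 genes covered 266 kb in the non-senescent list and 275 kb in the senescent list, a ratio of 1.03, beside 0.978 for the whole lists. The total hid opposite directions. In KCNMA1 the length went from 72.5 kb in 22 enhancers to 54.7 kb in 17, a change of -24.6%. In the other 7 genes with enhancers the senescent list was the longer one, and without KCNMA1 the ratio was 1.14. Over all 5007 protein-coding genes with an enhancer within the body or 2 kb of it, 53.0% had more length in the senescent list and 46.9% less.

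The gains in length were mostly extensions and joins of enhancers present in both lists. In ABCC8, 2 non-senescent enhancers (chr11:17401938-17425701 and chr11:17426264-17445321) were listed as 1 senescent enhancer of 45.0 kb (chr11:17403513-17448501), and the length went from 42.8 kb to 45.0 kb. In CACNA1A, the 3 non-senescent enhancers at chr19:13604805-13605737, chr19:13606729-13618126 and chr19:13621466-13626509 were matched by 1 senescent enhancer of 23.7 kb (chr19:13604234-13627887) with the same bounds as the H3K27ac peak there. The senescent enhancer of 15.9 kb beside it (chr19:13629394-13645294) also had the bounds of its peak, while the non-senescent one (chr19:13630272-13644113) was shorter at both ends. Over the gene, 7 non-senescent enhancers of 43.4 kb stood beside 5 senescent ones of 52.5 kb, a ratio of 1.21. The number of enhancers and their length thus went in opposite directions in both genes.

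CACNA1C went from 44 kb to 50.4 kb (ratio 1.15) with 9 and 10 enhancers, none of them listed in 1 state only. CACNA1H went from 19.3 kb to 20.7 kb (1.07) with 5 in each list and none listed in 1 state only. The single enhancer of KCNH2, over its last exons and 3′ UTR, was 2.51 kb long in the non-senescent list and 5.21 kb in the senescent one, where it filled the H3K27ac peak. SCN8A went from 8.38 kb to 9.09 kb (1.09). Among the 1587 protein-coding genes with at least 5 kb of non-senescent enhancer, the ratio had a median of 0.989, with 10th and 90th percentiles of 0.497 and 1.41, and the 7 channel genes of that size, measured in the same way, lay between those bounds (0.755 for KCNMA1 to 1.25 for CACNA1H).

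CACNA1D had 11 enhancers in each list, 33.3 kb and 37.7 kb (1.13), and was the gene with the most enhancers listed in senescent cells only. These 3 lay at chr3:53341929-53344022, near the start of the long gene models, at chr3:53515441-53517655, an intron 20.8 kb from the canonical start, and at chr3:53704580-53706230, at an internal start site. They fell on H3K27ac peaks with mean counts of 160, 158 and 109. The first also overlaps DCP1A and cannot be credited to either gene alone. Listed in non-senescent cells only were chr3:53707357-53710050 and chr3:53799818-53800600, on peaks of 176 and 58.8. The first of these began shortly past the end of the internal senescent-only enhancer, so that neighbouring stretches were listed in different states.

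KCNMA1 held 5 of the 9 enhancers listed in non-senescent cells only, and without this gene 4 were left. They lay in introns at chr10:77391242-77394345, chr10:77454849-77458106, chr10:77497911-77498881, chr10:77503873-77506328 and chr10:77586681-77587995, between 49.8 kb and 247 kb after the canonical start. Together they came to 11.1 kb, on H3K27ac peaks with mean counts from 92.8 to 388. Counted by bases, 27 kb of non-senescent enhancer in KCNMA1 had no senescent counterpart, a figure that includes these 11.1 kb. The rest came from shared enhancers, which were thus also trimmed in part. In the other direction, 9.19 kb of senescent enhancer had no non-senescent counterpart, including 1.29 kb in the enhancer named next. A single enhancer was listed in senescent cells only (chr10:77160162-77161452, on a peak of 93.6). By change of length in kb, KCNMA1 ranked 10 from the largest loss among 19663 genes, of which 2348 had less length in the senescent list. By length in the non-senescent list it ranked 8. It is also a long gene with many enhancers, and its ratio by that measure, 0.755, lay between the 10th percentile and the median of all genes of that size.

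The last state-only enhancers belonged to CACNA1A and SCN8A. In CACNA1A, an intronic enhancer (chr19:13416653-13418282) was listed in non-senescent cells only, on a peak of 106, and another (chr19:13555386-13558116), upstream of the canonical start, in senescent cells only, on a peak of 179. In SCN8A, both lay upstream of the gene, at chr12:51537150-51538093 in non-senescent cells (95.4) and at chr12:51517113-51518482 in senescent cells (94.3). The H3K27ac peaks under the 15 state-only enhancers had mean counts from 58.8 to 388. Their medians were 106 (non-senescent list alone) and 134 (senescent list alone). Peaks in both lists ran from 159 to 8190 with a median of 627. The gap was not particular to these genes. Over all H3K27ac peaks the medians were 131 (non-senescent list alone), 134 (senescent list alone) and 410 (both lists). These counts are means over both states, so they do not give the level in the state where an enhancer was listed. A weaker peak is more easily lost at a caller's threshold, and the part of this in the lists was not tested.

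The middle 200 bases of the state-only enhancer on the highest H3K27ac peak in each list are shown, read from hg38, with E-boxes and MAF cores in capitals. The first is in a KCNMA1 intron and was listed in non-senescent cells only, and the second is upstream of the canonical start of CACNA1A and was listed in senescent cells only.
KCNMA1, chr10:77456378-77456577, plus strand: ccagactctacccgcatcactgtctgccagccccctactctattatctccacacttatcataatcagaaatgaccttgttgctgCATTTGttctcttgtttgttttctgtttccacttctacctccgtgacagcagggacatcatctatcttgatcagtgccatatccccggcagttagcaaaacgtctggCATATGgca
CACNA1A, chr19:13556651-13556850, plus strand: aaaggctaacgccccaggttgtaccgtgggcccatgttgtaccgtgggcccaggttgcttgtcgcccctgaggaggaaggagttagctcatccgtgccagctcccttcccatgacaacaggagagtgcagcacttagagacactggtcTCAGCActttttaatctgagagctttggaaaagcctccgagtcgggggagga
The KCNMA1 stretch holds 2 E-boxes and no MAF core, and the CACNA1A stretch no E-box and 1 MAF core. Over their whole lengths, the enhancers held 3 MAF cores each, and 20 E-boxes (KCNMA1) and 15 (CACNA1A).

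CTCF peaks were found at 8 of the 9 genes within 2 kb of at least 1 start site, KCNH2 being the exception, and at 47.6% of all protein-coding genes. The 9 genes have 104 annotated start sites, and the part of that number in the count was not tested. ABCC8 and CACNA1A counted only through starts at 72.2 kb and -93.5 kb from the canonical one. From the canonical start, the nearest CTCF peak lay 3.05 kb away in ABCC8, 19.9 kb in CACNA1A and 2.95 kb in KCNH2. Of the 111 CTCF peaks, 17 lay at start sites, 77 elsewhere in gene bodies and 17 outside the genes. Their median mean count was 37.7, below the 58.6 of all CTCF peaks, with a range from 0.682 to 438. CTCF peaks of these genes lay in an H3K27ac peak in 51.4% of cases (57 of 111, Wilson 95% interval 42.2% to 60.4%), compared with 30.4% of all CTCF peaks. The set of all CTCF peaks was not limited to genes with H3K27ac, which all 9 carry, and the part of this was not tested. Several CTCF peaks can lie in the same H3K27ac peak, which the interval does not take into account. By gene, the count ran from 3 of 3 in KCNJ11 and 6 of 7 in ABCC8 to 13 of 31 in KCNMA1 and 4 of 14 in CACNA1A.

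**Figure D4:**
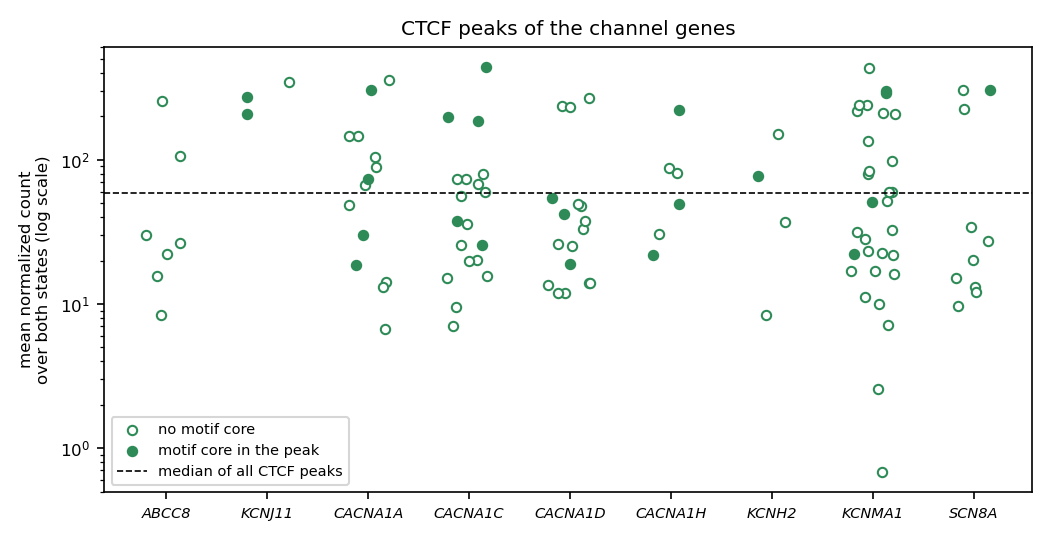
Mean normalized count over both states (log scale) of each CTCF peak assigned to the 9 channel genes, with filled points for peaks that hold the CTCF motif core and open points for those that do not, spread sideways at random within a gene. The dashed line is the median of all CTCF peaks, 58.6, and the 3 peaks of KCNJ11 all lie above it.

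At the ATP-sensitive channel, the 3 CTCF peaks of KCNJ11 lay inside its 11 kb H3K27ac peak. Their mean counts were 348 at the start (chr11:17388470-17390072), 206 over the coding exon (chr11:17385739-17387469) and 274 beyond it (chr11:17383460-17384987), all above the upper quartile of 176 of all CTCF peaks. The CTCF peaks of ABCC8 were lower. Its highest lay at -29.1 kb relative to the canonical start, inside the neighbouring gene USH1C (chr11:17504169-17505910, 256), and the next were at 105 (chr11:17405293-17406181), within the 51.3 kb H3K27ac region, and 30.0 (chr11:17473190-17473795). Across that region, 3 CTCF peaks were listed, none above 105.

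The highest CTCF peak of the 9 genes stood at -18.9 kb relative to the canonical start of CACNA1C (chr12:2034089-2036161, 438), followed there by the promoter (chr12:2051535-2054650, 199) and the intron after it (chr12:2056628-2058100, 184). In CACNA1A the highest were a peak over a coding exon (chr19:13276669-13278803, 354.5) and 1 between the canonical start and the acetylated upstream stretch (chr19:13588517-13590345, 306), then chr19:13609672-13610583 (146) within that stretch. CACNA1D peaked in an intron, at the end of its first non-senescent-only enhancer (chr3:53709634-53710954, 269), then at chr3:53299045-53300390 (236) and chr3:53374481-53375884 (233). In CACNA1H the highest was at chr16:1193343-1195159 (220), with 87.0 at the promoter (chr16:1152136-1153194) and 81.2 in an intron (chr16:1181025-1181891).

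KCNMA1 had the most CTCF peaks, 31, and its highest lay upstream of the gene, at -74.6 kb (chr10:77710790-77712428, 430), with the next 2 in introns at chr10:76984231-76985804 (297) and chr10:77173140-77174920 (292). SCN8A had peaks of nearly equal level at its promoter (chr12:51590086-51591609, 304.8) and upstream at -60.0 kb (chr12:51531188-51532814, 305.2), and 223 in an intron (chr12:51677469-51679199). KCNH2 had 4, all within the gene, led by chr7:150962479-150963730 (150), chr7:150974697-150975374 (77.3) and chr7:150965715-150966375 (36.9).

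CTCF recognises a long motif whose core was searched as a pair of C bases, 3 bases of any kind and AGGNGGC, on both strands with no mismatch. The core was present in 23 of the 111 peaks (20.7%, Wilson 95% interval 14.2% to 29.2%), beside 20.6% of all CTCF peaks, and in 2.7% of the same 111 regions moved by 10 kb. The methods name a filter of CTCF peaks for the CTCF motif, and whether the peaks used here had passed it is not known. Peaks chosen for the motif would hold it more often than moved regions, so no conclusion is drawn from that gap. Peaks with the core had a median mean count of 73.4, and those without 32.9, as over all CTCF peaks (126 and 48.1). Of the 26 matches in the 23 peaks, 13 lay on the strand of the gene and 13 on the other. No ABCC8 peak held the core, and 2 of the 3 KCNJ11 peaks did.

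Matches from 5 peaks are shown with 9 bases on either side and the core in capitals, each 5′ to 3′ along the motif in hg38. The first 4 are from strong peaks of 4 genes, and the fifth is from the CTCF peak of 51.2 counts inside a KCNMA1 enhancer listed in non-senescent cells only (chr10:77391242-77394345).
CACNA1C, chr12:2035063-2035092, minus strand: ctccgcgcaCCAGCAGGGGGCgccggcacc
CACNA1A, chr19:13589401-13589430, minus strand: taagactggCCACCAGGTGGCgccatggct
KCNMA1, chr10:76984989-76985018, minus strand: gcaggtccaCCAGCAGGTGGCgctgctttt
KCNJ11, chr11:17384082-17384111, plus strand: tctctgtggCCAGCAGGTGGCgctaagccc
KCNMA1, chr10:77392055-77392084, plus strand: cctgaaatgCCTCCAGGGGGCgccagcttt
The mean counts of the first 4 peaks were 438 (CACNA1C), 306 (CACNA1A), 297 (KCNMA1) and 274 (KCNJ11).

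CTCF peaks also lay under 7 of the 9 enhancers listed in non-senescent cells only (77.8%, Wilson 95% interval 45.3% to 93.7%), including all 5 of KCNMA1, whose CTCF mean counts ran from 16.8 to 135. Of the 51 shared non-senescent enhancers of the 9 genes, 16 had one (31.4%). Over the whole non-senescent list the percentages were 18.0% and 26.8%. For enhancers listed in senescent cells only, it was 2 of 6 (33.3%). The count of 7 of 9 was noticed after the values were seen, and neighbouring enhancers of 1 gene make up most of it.

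The retinoblastoma protein was represented by a list of 2435 regions with more signal in senescent than non-senescent cells. None of them was assigned to any of the 9 genes, and by the same rule 3.76% of all protein-coding genes had one. The nearest lay 537 kb from ABCC8, 568 kb from CACNA1C and 576 kb from KCNH2, and the farthest were those nearest to CACNA1A (6230 kb) and CACNA1H (6840 kb).

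The 9 genes were set beside 60 other channel genes, listed with earlier results of these data known. Of these, 42 (70.0%) had an H3K27ac peak at a start site, and the median of the highest start-site counts among the 42 was 243. Genes of the tandem-pore family KCNK16 and KCNK17 share 1 region of 9534 counts, and CACNA2D1, an auxiliary calcium channel subunit, had the next highest start-site sum (7161), followed by CACNB2 (4497) and the voltage-gated potassium channel gene KCNB2 (3168). The genes with no start-site peak included ABCC9, CACNA1G, CACNA1I, CACNA2D4, CACNB4, KCNA2, KCNA5, KCNK2, KCNN2, KCNN4, KCNMB1, SCN1A, SCN2B, SCN4B, ANO1, TRPM2 and TRPM5.

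Of 120 non-senescent enhancers of the other channel genes, 45 were listed in that state only (37.5%), and of 92 senescent ones, 18 (19.6%), beside 29.4% and 20.5% over the whole lists. State-only enhancers were present for 18 genes in the non-senescent list and 11 in the senescent list, with 7 genes in both. By group, the non-senescent-only share was 17 of 47 in voltage-gated potassium channel genes (36.2%), 10 of 37 in auxiliary calcium channel genes (27%) and 10 of 16 in calcium-activated potassium channel genes (62.5%), where KCNMB2 alone held 9. KCNMB2, which encodes an auxiliary subunit of the BK channel, had 12 non-senescent enhancers, 9 of them listed in that state only, and 3 senescent ones, and its length went from 31.7 kb to 9.73 kb. KCND3, which encodes a transient potassium channel, had 6 and 1, and went from 17.3 kb to 0.629 kb. By loss of enhancer length within 2 kb of the body, KCNMB2 ranked 7 (tied with an overlapping gene model) and KCND3 ranked 12. These ranks are among 19663 genes, of which 2348 lost length, and KCNMA1 had rank 10. In the other direction, CACNB2 went from 5 enhancers of 19.7 kb to 7 of 32.0 kb, ranking 37 from the largest gain, and CACNA2D1 from 13 of 39.7 kb to 9 of 46.7 kb, ranking 70.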

How the data were processed

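ChIP-seq of H3K27ac, CTCF, H3K4me1 and Rb was analysed from files that the authors deposited. Per the methods, reads were aligned to hg38 with Bowtie2, H3K27ac and H3K4me1 peaks were called with HOMER and CTCF and Rb peaks with MACS2. How replicates were combined and the versions are not given in the sources used here. The signal used here is the mean normalized count that the authors deposited for each peak, taken over all 6 libraries of a mark after scaling with DESeq2 size factors. Depth per library is unknown. The tables also hold the authors' own comparison of the states (a log2 fold change, its standard error, a test statistic, a p-value and an adjusted p-value), which was not used. The enhancer and Rb lists hold positions alone. Enhancers were overlaps of H3K27ac and H3K4me1 peaks outside promoters, and the methods name a CTCF motif filter.

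Members and lists were chosen with earlier results of these data known. All 9 genes are named with every start-site H3K27ac peak, every state-only enhancer and the 3 highest peaks of each mark, and of the 60 other channel genes those with no start-site peak and the 5 highest by summed start-site count. A gene and some sequences that this rule or the search would name are not reported here. Positions are 1-based on hg38. Regions were assigned with GENCODE 44 (start sites of protein-coding transcripts, 2 kb, 100 kb), and shared means an overlap of at least 1 base. Tables were handled with pandas 2.3.3, sequence was read with pysam 0.24.0, Wilson intervals came from statsmodels 0.14.6, and assignment, overlap and motif search were tested on simulated regions. Intervals cover counting error only. Alternatives were other limits, overlaps, windows and filters. No model was fitted and no test was made, because no value per library was given.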

Additional observations from a re-analysis of the deposited data

How the results depend on the processing

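Of 44 alternatives for 11 results, 32 left a count within 1.5 times of the value reported or a percentage within its interval, and 12 did not. Keeping only peaks with a mean count of 50 or more left 88 H3K27ac and 50 CTCF peaks. A reciprocal overlap of 50% gave shared percentages of 58.3% (non-senescent) and 66.0% (senescent) and 25 and 18 state-only enhancers, and one of 90% gave 16.7% and 18.9%, and 50 and 43 state-only enhancers. At 90% the whole lists gave 14.4% and 16.4%. Without KCNMA1, chosen after seeing the data, 4 non-senescent-only enhancers were left. With 1 mismatch allowed, 70.3% of the CTCF peaks held the motif core, as did 47.7% of the same regions moved by 10 kb. With the canonical start alone, 8 of the 9 genes had a start-site peak. Limits of 50 kb, all annotated genes as candidates for the nearest, and a 1 kb gap counted as shared moved no count by more than 1.5 times.

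No paired analysis was possible because the tables hold no value per library, and for the same reason leaving out a library was not possible. What was listed in 1 state only depends on the authors' thresholds and on the depth of libraries that is not known here. Signal under a threshold is not shown to be absent.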

Other observations

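ABCC9, the receptor subunit of the ATP-sensitive channel of muscle, and its partner KCNJ8 had 3 non-senescent enhancers between them, all listed in that state only, and 0 senescent ones, with 1 start-site peak of 75.2 counts at KCNJ8. Of 6 calcium channel pore genes outside the 9, CACNA1G and CACNA1I had no start-site peak, the highest start-site peaks of the other 4 ran from 90.6 (CACNA1F) to 191 (CACNA1B), and enhancers came to 12.8 kb in the non-senescent and 10.3 kb in the senescent list. The pacemaker channel gene HCN3 had a start-site peak of 1427 and no enhancer in either list, while HCN4 (259) had 13.1 kb and 15.7 kb.

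Among genes with a symbol, the largest losses of enhancer length within 2 kb of a gene body were in CMIP (69.5 kb to 40.3 kb), PRKCH (50.9 kb to 22.8 kb) and the calcium sensor gene SCGN (24.8 kb to 0), and the largest gains in DIP2C (90.8 kb to 136 kb), ECE1 (10.8 kb to 43.1 kb) and PTPRN2 (90.3 kb to 118 kb). By the same measure CACNA1A gained 7.84 kb, at rank 84 of 19663 genes, of which 2656 gained length.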
